A study of Mus musculus with 12 samples.

Results

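Primary microglia of homozygous *Trem2* R47H knock-in mice (KI) were exposed to the cytokine IL-4, and their response was measured by RNA-seq in 3 cultures, named T15, T22 and T32. Cells of each culture were sequenced both untreated and following 48 h of IL-4 at 20 ng/ml, so that the KI response rests on 6 of the 12 libraries of the study, compared within cultures. The other 6 libraries came from 3 wild-type (WT) littermate cultures, T13, T33 and T43, treated in the same way. They are used here as context, for the estimate of the spread and for the filter that decides which genes were tested. The cells were microglia of newborn mouse cortex and hippocampus that had grown in mixed glial culture and were then separated by mild trypsinization, and IL-4 was the only agent added. According to the methods, litters of the knock-in line gave cultures of single pups that were kept apart and genotyped afterwards, and which of the 6 cultures shared a litter is not given in the sources used here. The allele also lowers *Trem2* expression in mice through altered splicing, so the KI cells carry both the substitution and less of the transcript. Values are TPM (transcript abundance scaled for transcript length and library size), which keep no read counts, and the depth behind each value is therefore unknown. Values of the KI cultures are given in the order T15, T22 and T32 throughout.

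IL-4 binds a receptor made of its own alpha chain and a shared gamma chain, and the JAK kinases attached to the receptor phosphorylate the transcription factor STAT6. In macrophages and microglia this leads to so-called alternative activation, with arginine metabolism, lectins, scavenger receptors and secreted repair factors as its best known products, and SOCS proteins switch the signal off again. TREM2 is a lipid-sensing receptor of microglia that signals through the adaptor TYROBP and supports their survival and phagocytosis.

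Microglial identity and the content of other cells were checked first. The 18 microglia markers summed to 13460, 27249 and 21768 TPM in KI cultures before treatment and to 23015, 31409 and 29956 TPM after IL-4, so culture T15 was the lowest in both states and every culture was higher with IL-4. The 15 astrocyte markers summed to 6989 TPM in untreated and 5217 TPM in IL-4-treated T15, against 488 to 1025 TPM in the other 4 KI libraries. With IL-4 this sum went from 488 to 931 TPM in T22 and from 1025 to 881 TPM in T32, and its part in the results was not tested beyond the fit with an astrocyte score as a covariate. *Gfap*, the intermediate filament of astrocytes, was at 3013 TPM in untreated T15 and 2157 TPM with IL-4, compared with 80.5 to 351 TPM in T22 and T32. The defining neuronal gene *Rbfox3*, the endothelial genes *Cdh5* and *Cldn5*, and *Lyve1* of border macrophages were listed at 0 in all 6 KI libraries, and *Cd163* did not exceed 0.0355 TPM. The 7 neuronal markers summed to 58.8 and 63.6 TPM in T15 and to 16.2 to 42.6 TPM in the other KI libraries, and the 6 endothelial markers to 2.47 to 8.53 TPM. Oligodendrocyte lineage markers summed to 547 and 377 TPM in T15 and to 143 to 216 TPM elsewhere. The 10 mural or fibroblast markers summed to 704 to 1327 TPM, nearly all of it from the contractile genes *Acta2* and *Tagln*, while *Myh11* was at or near 0. Border macrophage markers summed to 41.1, 116 and 145 TPM untreated and 81.1, 207 and 351 TPM with IL-4. *Mrc1*, the 1 of them past the threshold, is also a gene of alternative activation, but most of each sum came from other members. Of the 3 tested, 2 had an unadjusted limma p under 0.05, with a median difference of 0.88. The part of border macrophages in the results was not tested. None of the 13 astrocyte, 7 oligodendrocyte lineage or 5 mural or fibroblast markers that were tested passed the threshold with IL-4, also at an unadjusted limma p under 0.05. T15 therefore held more RNA of astrocyte, oligodendrocyte lineage and neuronal markers in both of its libraries, and results are given with and without it where it matters. In bulk RNA, fewer cells of a type and less RNA per cell cannot be told apart.

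**Figure D1:**
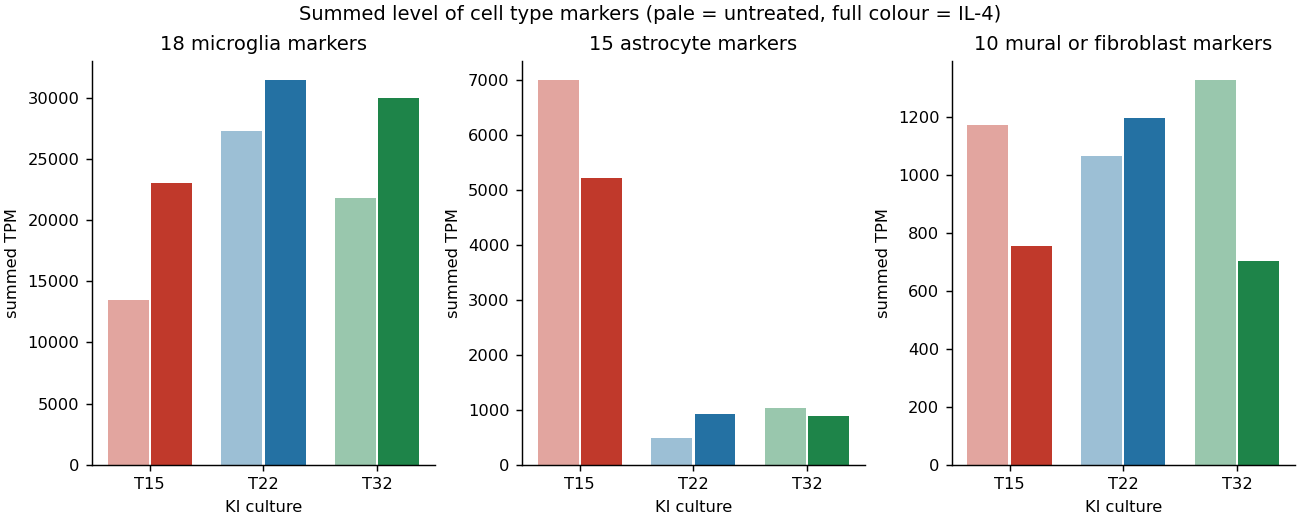
Summed TPM of the markers of 3 cell types in each KI culture, with untreated libraries as pale bars and IL-4-treated libraries as full bars, on axes that start at 0. T15 stands apart by 6989 and 5217 TPM of astrocyte markers and has the lowest microglia sums, 13460 and 23015 TPM.

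*Trem2* itself (chromosome 17, 48346401 to 48354147, GRCm38, plus strand) was at 325, 770 and 602 TPM before and at 428, 598 and 634 TPM after IL-4. All 6 values lay below the 6 WT libraries, which ranged from 1190 to 1886 TPM. The difference with IL-4 was 0.04 ± 0.13 (SE) on the log2 scale with an adjusted p of 0.96, and its sign differed between cultures, positive in T15 and T32 and negative in T22. *Tyrobp*, the adaptor of TREM2, was at 2285, 5793 and 4422 TPM untreated and 3444, 5566 and 5048 TPM with IL-4 (adjusted p = 0.53). In T15 both genes were lower than in the other cultures before treatment. *Trem1*, *Trem3*, *Treml1*, *Treml2* and *Treml4* did not exceed 2.37 TPM in any KI library.

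Of the 11204 genes tested, 109 were higher with IL-4 in KI microglia, which is 0.973% of them, and 23 were lower, which is 0.205%. The threshold was a Benjamini-Hochberg adjusted p under 0.05 in limma on log2(TPM + 1), with culture as a block and genes kept whose mean over all libraries exceeded 1.5 on that scale. Each of the 132 genes changed in the same direction in all 3 cultures. They were called from these same differences, so this agreement is not separate support. The median difference of the higher genes was 1.42 on the log2 scale, with 76 of them above 1 and 30 above 2, whereas the median over all genes tested was 0.01. The lower genes had a median of -1.18, with 14 of them beyond -1. Without the block, 40 genes were higher and 5 lower, all among the 132. At an unadjusted p under 0.05 stood 1144 genes, which is 10.2% of those tested, and this share and the 0.973% and 0.205% are the background for the counts of the gene lists. The KI libraries on their own, with 2 residual degrees of freedom against 4 in the main fit, called 59 and 10. Why these counts were smaller was not tested.

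The count of lower genes depended on single cultures more than that of higher genes. Without T15, 80 genes were higher and 20 lower, of which 71 and 9 were among the 109 and 23. The lower count was 13 without T22, 7 without T32 and 10 without the WT culture T43. In that last fit the genes tested were unchanged, so only the spread differed. In all 6 fits that each left out 1 culture, 58 of the 109 higher genes and 4 of the 23 lower genes stayed past the threshold. These 4 were *Tlr2*, *Cd14*, *Hpgd* and *Cx3cr1*. Of the 62 genes, 35 also passed without the block. Those described below that did not were *Cd14* and *Cx3cr1* (adjusted p = 0.26 and 0.20), *Lgals3* and *Mmp12* (0.54 each), *Igf1*, *Cst7*, *Ctsh*, *Fcgr3*, *Tbxas1*, *C1qc*, *C1qa*, *Sat1*, *Clec4a3*, *Postn* and *Mir339* (0.071 to 0.55). Among the higher genes the difference was largest in T15 for 49, in T32 for 40 and in T22 for 20, and their median was 1.41 in T15, 1.15 in T22 and 1.49 in T32. The medians over all genes tested were 0.03, 0.13 and -0.16 in the 3 cultures. Among the lower genes T15 had the smallest difference for 14 of 23.

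**Figure D2:**
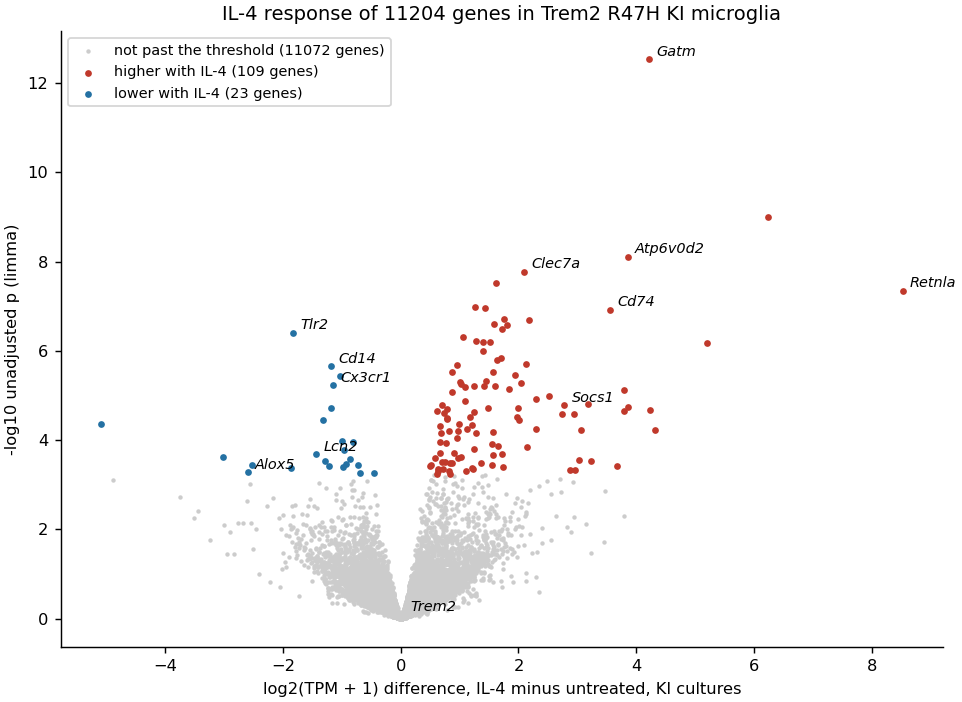
Each point is 1 of the 11204 genes tested, with the log2(TPM + 1) difference between IL-4 and untreated KI cultures on the x axis and the negative log10 of the unadjusted limma p on the y axis. The 109 higher genes are red and the 23 lower genes blue, with Gatm at the top, Atp6v0d2 and Retnla far to the right and Tlr2 far up on the left.

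The smallest p belonged to *Gatm* (chromosome 2, 122594467 to 122611303, minus strand), whose mitochondrial enzyme makes the precursor of creatine from arginine and glycine. It was at 62.8, 56.6 and 49.2 TPM untreated and at 1045, 1195 and 959 TPM with IL-4. The 2 groups were far apart and the cultures close together, with a mean of 56.2 ± 6.85 against 1067 ± 119 TPM (SD, n = 3), a 19-fold difference and an adjusted p of 3.3e-09. *Retnla* (chromosome 16, 48842551 to 48844461, plus strand), which encodes the secreted protein FIZZ1 or RELM-alpha, had a value of 0 in each untreated culture and was at 96.1, 415 and 1229 TPM with IL-4 (adjusted p = 8.3e-05). Its level after IL-4 thus spread widely between cultures, and T15 had the lowest value.

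The alternative activation list held 23 genes, of which 16 passed the filter on low values. Of these, 8 rose and none fell, with a median difference of 1.04 over the 16 against 0.01 over all genes. The filter averages treated libraries too, so *Retnla*, at 0 in each untreated culture, passed it through its IL-4-treated libraries. With no filter, 21 members were tested, 0 were called and the median was 0.83. Without 1 KI culture 7 or 8 rose and the median was 1.25 to 1.52, and brackets after the medians of other lists give this range over the same 3 fits. *Clec7a* (chromosome 6, 129461591 to 129472779, minus strand), the dectin-1 receptor for beta-glucans, went from 141, 297 and 264 to 653, 1292 and 1032 TPM, a 4.24-fold difference of the means (adjusted p = 4.7e-05). The mannose receptor gene *Mrc1* went from 0.779, 4.33 and 3.86 to 20.8, 23.3 and 63.2 TPM, so it stayed a low transcript (adjusted p = 0.0038). *Cd36*, a scavenger receptor for oxidized lipids, was at 267, 104 and 236 TPM before and 645, 447 and 876 TPM after IL-4 (adjusted p = 2.1e-04). Within each culture it rose, although the untreated level was lowest in T22. *Itgax*, the CD11c integrin chain, rose from 1.35, 2.18 and 2.61 to 12.6, 27.0 and 31.1 TPM (adjusted p = 0.0049, and 0.09 with a pseudocount of 0.1). *Igf1*, a growth factor that microglia secrete, rose 1.98-fold from a mean of 932 ± 299 to 1842 ± 301 TPM (SD, n = 3), with an adjusted p of 0.0018. *Chil3*, the chitinase-like protein Ym1, was listed at 0, 0 and 0.209 TPM untreated and was at 3.13, 9.56 and 56.3 TPM with IL-4. Its adjusted p of 0.037 rose to 0.094 without T22, 0.24 without T32 and 0.09 without T43, so that call rests on single cultures.

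Several textbook members of the list did not pass. *Cd200r1*, the receptor of an inhibitory neuronal ligand, was at 25.8, 24.9 and 22 TPM untreated and at 54.3, 35.6 and 68.2 TPM with IL-4 (adjusted p = 0.082). The chemokine gene *Ccl17* was listed at 0 in all 6 libraries, as was *Alox15*, and *Ccl22*, *Clec10a*, *Mgl2*, *Chil4* and *Pdcd1lg2* lay below the filter. *Fn1*, which encodes fibronectin, differed by 0.11 with an adjusted p of 0.93. The scavenger receptor gene *Msr1* differed by -0.04 with an adjusted p of 0.97.

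The promoters of these genes are shown because STAT6, the factor that IL-4 activates, recognizes TTC and GAA with 4 bases of any kind between them, while other STAT factors prefer 3 bases between them. Both patterns read the same on either strand. The windows are the 250 bases before the RefSeq start (GRCm38.p6), written 5′ to 3′ on the strand of the gene, and capitals mark a match. *Retnla* lies at chr16:48842359-48842608 on the plus strand, *Clec7a* at chr6:129472780-129473029, *Chil3* at chr3:106167565-106167814 and *Gatm* at chr2:122611278-122611527, the last 3 on the minus strand.
Retnla: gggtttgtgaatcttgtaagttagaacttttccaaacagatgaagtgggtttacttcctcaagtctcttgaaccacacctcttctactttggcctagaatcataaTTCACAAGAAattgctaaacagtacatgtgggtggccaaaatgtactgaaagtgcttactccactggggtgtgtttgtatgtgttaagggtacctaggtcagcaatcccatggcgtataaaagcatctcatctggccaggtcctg
Clec7a: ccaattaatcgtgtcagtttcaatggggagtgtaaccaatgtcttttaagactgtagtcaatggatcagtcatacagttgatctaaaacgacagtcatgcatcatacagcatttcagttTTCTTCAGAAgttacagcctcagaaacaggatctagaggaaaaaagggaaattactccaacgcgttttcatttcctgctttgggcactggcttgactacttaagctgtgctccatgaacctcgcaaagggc
Chil3: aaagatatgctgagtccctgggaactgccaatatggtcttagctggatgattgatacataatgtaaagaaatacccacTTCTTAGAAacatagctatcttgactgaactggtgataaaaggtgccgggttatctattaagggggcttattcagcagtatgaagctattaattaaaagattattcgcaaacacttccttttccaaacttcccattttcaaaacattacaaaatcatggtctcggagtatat
Gatm: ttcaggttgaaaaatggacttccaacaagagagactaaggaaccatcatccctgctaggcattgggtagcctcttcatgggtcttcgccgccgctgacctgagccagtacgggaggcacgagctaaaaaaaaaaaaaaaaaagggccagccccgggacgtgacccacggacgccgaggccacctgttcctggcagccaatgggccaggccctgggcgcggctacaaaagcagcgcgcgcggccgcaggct
*Retnla* held TTCACAAGAA, which begins 145 bases before the start, and *Clec7a* held TTCTTCAGAA, which begins 131 bases before it. *Chil3* held TTCTTAGAA, the shorter pattern, 172 bases before the start. These letters were not in the windows of *Gatm* or *Socs1*. Of the genes that were higher with IL-4, 82 matched the promoter table by symbol, and 10 of them (12.2%) held the pattern with 4 bases between, against 478 of the 8510 genes tested that had a window (5.62%). For the pattern with 3 bases between, the counts were 7 of 82 (8.54%) and 585 of 8510 (6.87%). Among all 32851 windows of the table the shares were 5.85% and 7.02%. A match describes the letters of a window and no binding was measured.

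**Figure D3:**
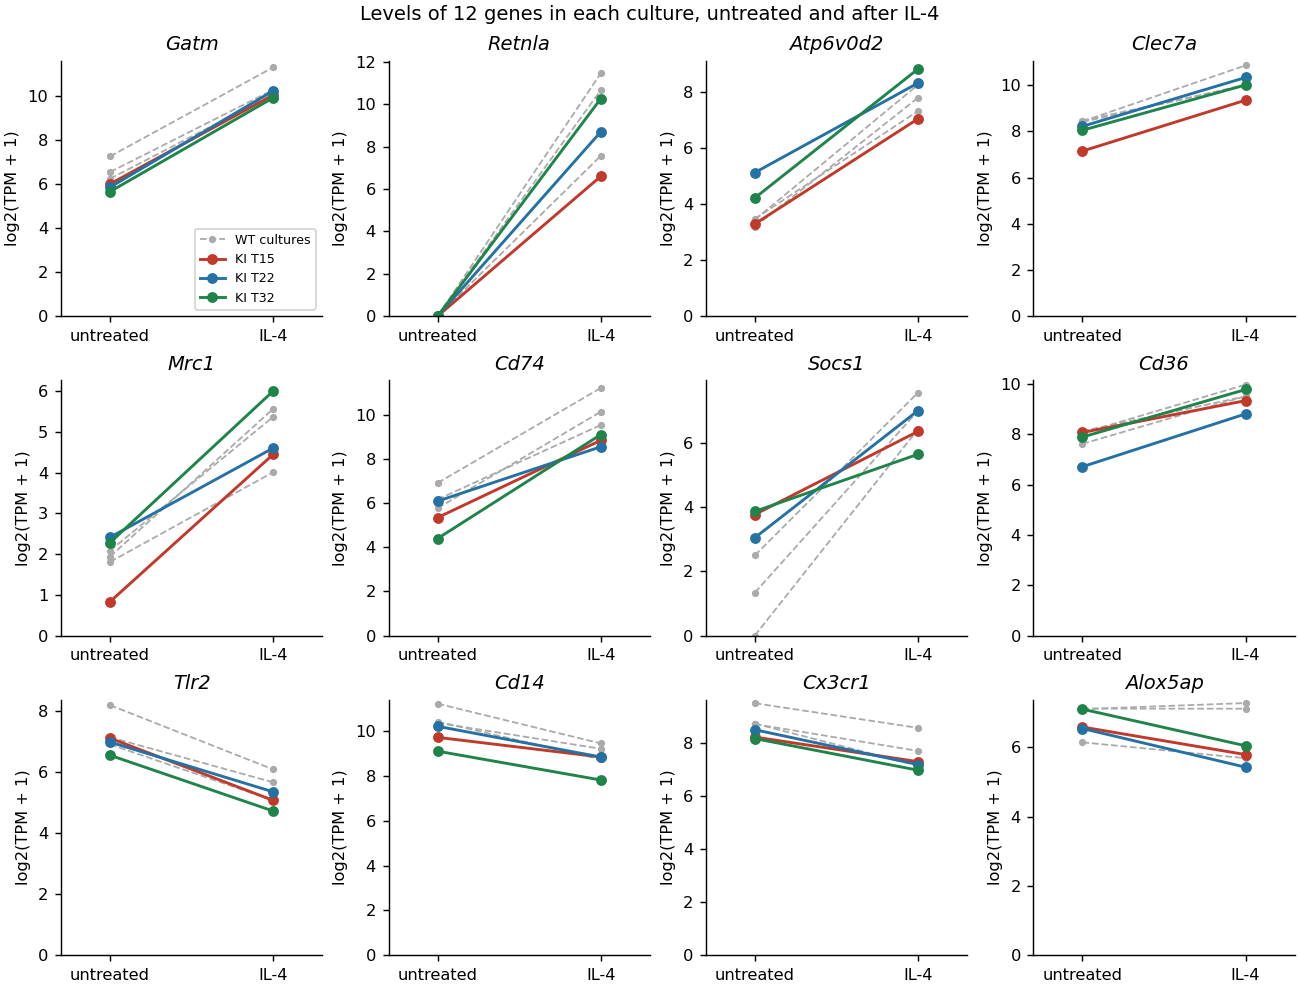
Levels of 12 genes as log2(TPM + 1) in each culture, untreated and after IL-4, with the 2 libraries of a culture joined by a line, KI cultures in colour and WT cultures as grey dashed lines. The first 8 genes rose and the last 4 fell in all 3 KI cultures, and Retnla starts from 0 in every culture.

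Of 19 genes of arginine, creatine and polyamine metabolism tested, 4 rose and none fell, and the median difference was -0.02 (-0.12 to 0.29). Beside *Gatm* these included *Sat1*, whose enzyme acetylates polyamines for breakdown and export, and *Slc7a2*, a transporter of cationic amino acids. *Sat1* rose from 315, 563 and 377 to 765, 909 and 795 TPM (adjusted p = 0.0017). *Slc7a2* went from 10.1, 1.40 and 0.936 to 20.5, 20.6 and 42.8 TPM, with an adjusted p of 0.043 that exceeded the threshold in 5 of the 6 fits without 1 culture and reached 0.24 without T32. The polyamine synthesis genes *Odc1*, *Srm*, *Sms* and *Amd1* had differences of -0.05, -0.21, -0.57 and -0.27, all with adjusted p of 0.63 or more. *Nos2*, which makes nitric oxide from arginine, was listed at 0 in 5 of the 6 KI libraries.

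Of 9 genes of the receptor and its signal chain tested 0 were called in limma and 3 had an unadjusted p under 0.05, with a median difference of 0.12. That median was 0.56 in T15, -0.15 in T22 and -0.10 in T32, and -0.26 without T15 (-0.26 to 0.38). *Il4ra*, the receptor's alpha chain, was at 27.2, 17.7 and 24.5 TPM untreated and at 23.4, 11.8 and 22.8 TPM with IL-4, and *Stat6* was at 25.6, 93.9 and 59.1 TPM and then 47.8, 53.4 and 72.1 TPM. Their adjusted p were 0.79 and 0.93. *Il2rg*, the shared gamma chain, was at 32.2, 67.6 and 32.3 TPM and then 55.6, 91.5 and 90.3 TPM (adjusted p = 0.094, and 0.049 with each library's astrocyte score, the mean standardized level of the astrocyte markers, as a covariate). Among 12 feedback inhibitors, with a median of 0.20 (0.06 to 0.63), only *Socs1* passed, a protein that blocks JAK kinases. It rose from 12.7, 7.28 and 13.6 to 81.6, 128 and 49.4 TPM, a 7.72-fold difference of the means, with an adjusted p of 0.0039 that was 0.12 with a pseudocount of 0.1. Culture T22 had the lowest untreated and the highest treated value of *Socs1*. The other STAT5 and STAT6 feedback genes, *Socs2* and *Cish*, had adjusted p of 0.44 and 0.37.

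Of 12 transcription factors tested, 4 rose and none fell, with a median difference of 0.79 (0.52 to 1.01). With no filter, 16 were tested, 0 were called and the median was 0.23. *Egr2*, a zinc finger factor of alternatively activated macrophages, was at 12.3, 11.7 and 11.8 TPM untreated, with hardly any spread, and at 40.3, 84.3 and 72.3 TPM with IL-4 (adjusted p = 0.0030). *Egr2* was the only 1 of the 4 that stayed past the threshold without each culture in turn, and the only 1 called without the block. The KI libraries on their own called 2 genes of the list. *Pparg*, a lipid-sensing nuclear receptor, went from 1.66, 3.62 and 12.5 to 19.4, 17.4 and 51.1 TPM (adjusted p = 0.0087, and 0.065 without T15). *Nfil3* went from 16.6, 22.9 and 24.1 to 70.7, 65.1 and 78.3 TPM (adjusted p = 0.025, and 0.15, 0.056 and 0.11 without T15, T22 and T32). *Batf3* was listed at 0 in untreated T22 and had an adjusted p of 0.032, which was 0.066 without T22, 0.065 without T32, 0.077 without T43 and 0.13 with a pseudocount of 0.1. *Irf4* was listed at 0 in every KI library. *Myc* and *Bhlhe40* had positive differences of 0.72 and 0.87 that did not pass.

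*Atp6v0d2* (chromosome 4, 19876841 to 19922605, minus strand), a subunit of the proton pump that acidifies lysosomes, went from 8.80, 34.0 and 17.7 to 131, 320 and 453 TPM (15-fold, adjusted p = 2.9e-05). *Atp6v0a1*, another subunit of the same pump, went from 75.1, 97.6 and 95.4 to 205, 211 and 301 TPM (adjusted p = 3.8e-04). The remaining 11 pump genes tested, among them *Atp6v0d1*, *Atp6v1a* and *Atp6v1h*, did not pass. In the whole list of pump and lysosomal genes 6 of 26 rose and none fell, with a median of 0.19 (0.16 to 0.23), and 3 rose without T32. The other 4 were the cathepsin genes *Ctsh*, *Ctsl*, *Ctsc* and *Ctsz*, proteases of the lysosome, with differences of 0.78, 0.58, 0.87 and 0.51. Only *Ctsh* among these kept the call without each culture in turn, and all 4 lost it in the KI libraries on their own, at 0.07 to 0.28. *Ctsl* was not called without T22, T32, T33 or T43 (adjusted p up to 0.20), *Ctsc* without T15, T32 or T43 (up to 0.18), and *Ctsz* without any culture other than T22 (up to 0.19). *Ap2m1*, which links clathrin coats to cargo receptors, rose from 386, 331 and 370 to 742, 734 and 781 TPM (adjusted p = 3.5e-04), and of 17 clathrin coat and adaptor genes only the light chain gene *Clta* also passed (adjusted p = 0.0098, and 0.087 without T32), with a median of 0.24 for the list (0.19 to 0.32).

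**Figure D4:**
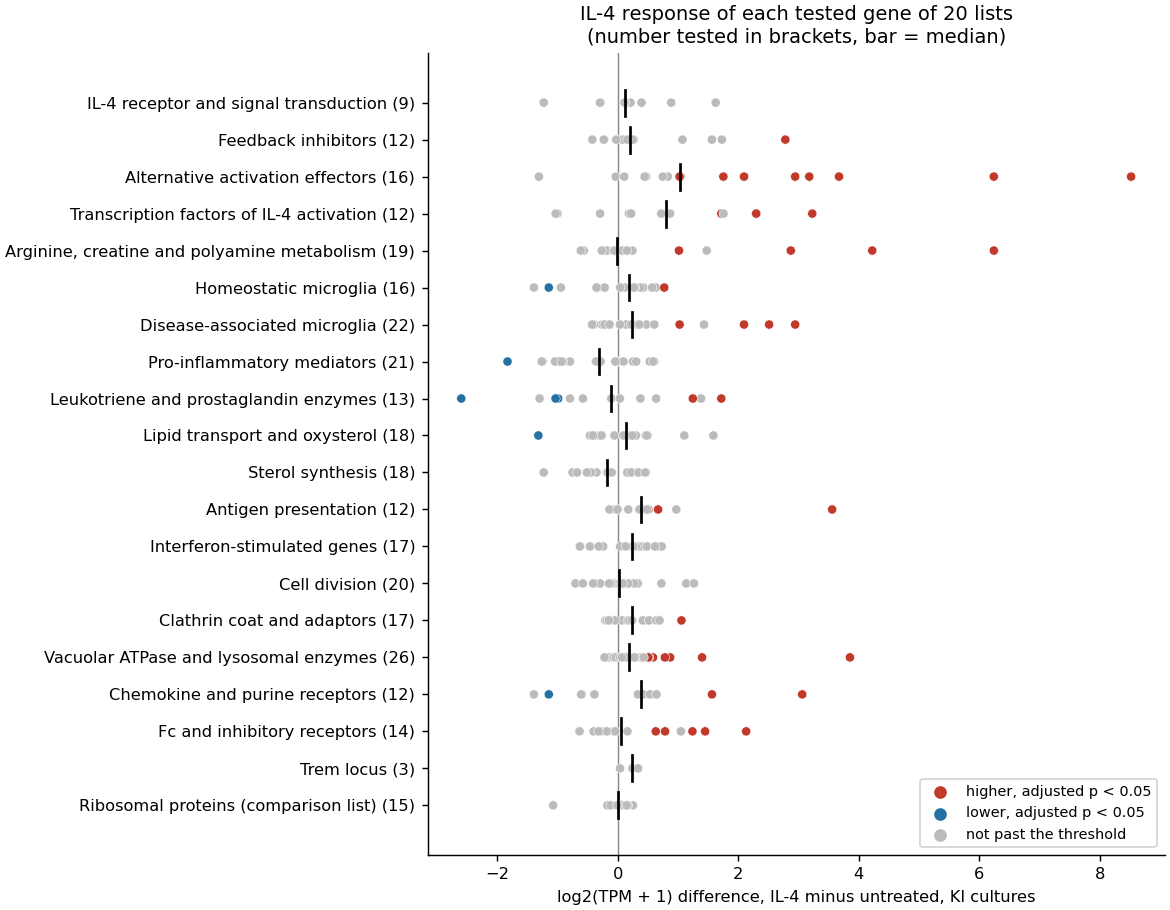
Each point is a tested gene of 1 of 20 gene lists, placed by its log2(TPM + 1) difference between IL-4 and untreated KI cultures, with red and blue for genes past the threshold and a black bar at the list's median. The alternative activation list reaches farthest to the right, with a median of 1.04, and the receptor, sterol, interferon, cell division, Trem and ribosomal lists hold grey points only.

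Of 12 antigen presentation genes tested, 3 rose and none fell, with a median of 0.38 (0.37 to 0.43), and 1 rose without T15. *Cd74*, the invariant chain that guards the peptide groove of MHC class II, went from 39.5, 66.9 and 20.0 to 458, 374 and 549 TPM, a 10.9-fold difference (adjusted p = 1.5e-04). The class II genes themselves stayed low: *H2-Ab1* was at 2.85 to 15 TPM in the 6 libraries (adjusted p = 0.87), and *H2-Aa*, *H2-Eb1* and *Ciita* lay below the filter. The class I genes *H2-K1* and *H2-D1* rose by 0.67 and 0.50 (adjusted p = 0.0079 and 0.037), and had adjusted p of 0.056 and 0.16 without T15. *H2-D1* was also not called without any other single culture except T22, with an adjusted p of up to 0.23. Class I genes are close copies of each other, so how their reads were divided is uncertain.

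Of the receptors for antibodies and inhibitory ligands, 5 of 14 rose and none fell, with a median of 0.06 (-0.08 to 0.51) that was -0.04 after quantile normalization. *Fcgr2b*, the inhibitory Fc receptor, rose from 91.6, 149 and 109 to 274, 366 and 308 TPM (adjusted p = 0.0017). *Clec4a3*, a C-type lectin, rose from 32, 27.2 and 46.1 to 149, 138 and 175 TPM (adjusted p = 9.4e-04). *Fcgr3* and *Cd300lb* rose by 0.78 and 1.24, and *Cd72* by 0.63 with an adjusted p of 0.04 that was 0.067 to 0.24 without T13, T15, T32, T33 or T43. Fc receptor genes resemble each other, so the division of their reads is uncertain. Of 12 chemokine and purine receptors tested, 2 rose and 1 fell, with a median of 0.38 (0.21 to 0.30). With no filter, 15 were tested and the median was -0.02. *P2ry6*, the nucleotide receptor that triggers phagocytosis, rose from 45.2, 118 and 86.7 to 179, 229 and 299 TPM (adjusted p = 0.0012). *Cx3cr1*, the receptor for the neuronal chemokine fractalkine, moved the other way, from 300, 364 and 289 to 157, 146 and 126 TPM. The fall to 0.449 of the untreated mean held in every culture and in each fit without 1 culture (adjusted p = 0.0018), and its adjusted p was 0.20 without the block.

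Of 16 homeostatic microglia genes tested, 1 rose, *Fcrls*, and 1 fell, *Cx3cr1*. Their median of 0.19 rested on T15, with 0.29, -0.02 and -0.21 in the 3 cultures and -0.05 without T15 (-0.05 to 0.21). *Fcrls* went from 507, 435 and 482 to 966, 796 and 688 TPM (adjusted p = 0.016, and 0.12 without T15 and 0.062 without T22). *P2ry12* and *Tmem119*, both used as markers of resting microglia, had differences of 0.63 and -0.34 with adjusted p of 0.67 or more, and *P2ry12* did not exceed 18.9 TPM. Of 22 genes of disease-associated microglia, the state seen around amyloid plaques, 4 rose and none fell, namely *Itgax*, *Clec7a* and *Igf1* from above and *Cst7*, with a median of 0.23 (0.18 to 0.34). Without T22 7 rose, and with the astrocyte score as a covariate 6 rose and 2 fell, the latter *Apoe* and *Lyz2*. *Cst7*, an inhibitor of cathepsins, went from 27.3, 131 and 8.36 to 190, 299 and 112 TPM, so the groups overlapped although each culture rose (adjusted p = 0.0027). *Apoe*, *Lpl*, *Spp1*, *Gpnmb* and *Ctsd*, which belong to the same state, had adjusted p between 0.14 and 0.67.

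The complement genes *C1qa*, *C1qb* and *C1qc*, among the most abundant microglial transcripts, rose by 0.96, 0.71 and 0.86. *C1qa* was at 1550, 2777 and 2056 TPM before and 3406, 4545 and 4186 TPM after IL-4 (adjusted p = 9.4e-04). The call of *C1qb* was lost without T32 (adjusted p = 0.053) and after quantile normalization (0.20). The microglia marker sum, which contains these 3 genes, also rose in each culture, most in T15, and its part in these differences was not tested.

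Genes that were lower with IL-4 included receptors for bacterial products. *Tlr2* (chromosome 3, 83836272 to 83841767, minus strand), the toll-like receptor for lipoproteins, went from 137, 125 and 92.3 to 32.5, 39.6 and 25.3 TPM, a 3.63-fold lower mean (adjusted p = 2.9e-04). *Cd14*, the co-receptor for lipopolysaccharide, went from 850, 1197 and 553 to 461, 461 and 226 TPM (adjusted p = 9.5e-04). *Tlr4*, the signalling partner of CD14, had a difference of 0.25 that did not pass (adjusted p = 0.82). Of 21 pro-inflammatory genes tested, 2 fell and none rose, with a median of -0.31 (-0.51 to -0.16), and without T22 1 fell and 1 rose, the chemokine gene *Ccl5*. The second was the chemokine gene *Ccl3*, which went from 325, 478 and 267 to 253, 197 and 110 TPM (adjusted p = 0.021, and 0.11, 0.16 and 0.058 without T22, T32 and T43). Its adjusted p was 0.32 without the block. *Tnf* and *Il1b* were low, at 8.55 to 34.8 and 23.2 to 41.1 TPM untreated, and had adjusted p of 0.31 and 0.81.

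The enzymes of eicosanoid metabolism moved in both directions. Of 13 tested, *Ptgs1* and *Tbxas1* rose, and *Hpgd*, *Alox5ap* and *Alox5* fell, with a median of -0.11 (-0.25 to -0.04). *Ptgs1*, the constitutive cyclooxygenase, rose from 39.8, 55.9 and 64.4 to 158, 144 and 233 TPM (adjusted p = 2.6e-04), and *Tbxas1*, thromboxane synthase, from 43.9, 109 and 76.0 to 114, 196 and 221 TPM (adjusted p = 0.0018). *Hpgd*, which inactivates prostaglandins, fell from 449, 447 and 542 to 222, 183 and 309 TPM (adjusted p = 0.0013). *Alox5ap*, which hands arachidonic acid to 5-lipoxygenase, went from 95.2, 92.4 and 137 to 54.4, 42.0 and 65.1 TPM (adjusted p = 0.015, and 0.066 and 0.087 without T22 and T32). Its adjusted p was 0.55 without the block. *Alox5*, 5-lipoxygenase itself, was at 2.81, 6.14 and 7.19 TPM untreated and listed at 0 in all 3 treated libraries, and its adjusted p of 0.046 exceeded the threshold without any 1 of the 6 cultures (0.084 to 0.18). It passed the filter on low values only through the WT libraries. The inducible cyclooxygenase *Ptgs2* did not pass (adjusted p = 0.71).

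The other genes with the smallest p among the higher ones were *Dhrs3*, a retinal reductase, *Cd52*, a small surface glycoprotein, *Lgals3*, the galectin-3 lectin, *Mmp12*, macrophage elastase, and *Prkcd*, a protein kinase C. Their means rose 3.15-fold, 2.42-fold, 2.77-fold, 4.97-fold and 2.98-fold, with adjusted p between 6.8e-05 and 2.3e-04, and each kept the call without every culture in turn, whereas *Lgals3* and *Mmp12* had an adjusted p of 0.54 without the block. *Lgals3* reached 3020, 5662 and 9389 TPM. Among the largest differences were also *Rnase2a*, a secreted ribonuclease listed at 0 in the 3 untreated libraries and at 7.48, 11.4 and 61.3 TPM with IL-4, and *Postn*, the matrix protein periostin, at 14.7, 32 and 10.5 TPM with IL-4. The microRNA gene *Mir339* and the small nuclear RNA gene *Gm22098* had values of 0 in all KI cultures before treatment and of 11.3 to 95 TPM with IL-4, and *Gm22098* lost the call without T15 (adjusted p = 0.097). TPM of so short a gene can rest on few reads, and 5 of the 109 higher genes were of such short RNA classes.

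Further lower genes were *Serpine2*, a secreted protease inhibitor, *Apoc2*, the activator of lipoprotein lipase, *Coro1a*, an actin regulator, *Lcn2*, an iron-binding lipocalin, and *Chil1*, a chitinase-like protein. Without the block *Serpine2*, *Coro1a*, *Lcn2* and *Chil1* had adjusted p of 0.24, 0.057, 0.21 and 0.11 in limma. *Serpine2* went from 445, 713 and 406 to 281, 267 and 146 TPM (adjusted p = 0.0041, and 0.052 without T32). *Apoc2* went from 205, 137 and 181 to 73.8, 81.1 and 52.9 TPM (adjusted p = 0.006, and 0.06 without T15 and 0.07 without T32), the only 1 of 18 lipid transport and oxysterol genes to pass, whose median was 0.14 (-0.05 to 0.21). With the astrocyte score as a covariate 2 of them rose and 2 fell. *Lcn2* went from 161, 393 and 310 to 103, 162 and 58.5 TPM (adjusted p = 0.025, and 0.07, 0.14 and 0.056 without T22, T32 and T43). *Chil1* went from 45.4, 65.8 and 63.4 to 17.2, 18.4 and 10.9 TPM (adjusted p = 0.039, and 0.067 to 0.23 without T13, T15, T22 or T32). *Coro1a* had an adjusted p of 0.015, which was 0.069 without T15, 0.073 without T22 and 0.05 without T43. The pseudogene *Gm7206* had the largest fall, from 28.9 to 43 TPM to 0.0324 TPM or less (adjusted p = 0.0073, and 0.053 and 0.052 without T15 and T32), and how reads were divided between it and similar sequences is uncertain. *Zfp965* and *Mum1* fell by 3.02 and 2.53 from untreated levels of 7.55 to 24.5 TPM, and the first lost the call without T15, T22 or T32 (adjusted p up to 0.13) and the second without any of the 6 cultures (up to 0.17).

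None of 18 sterol synthesis genes, 17 interferon-stimulated genes, 20 cell division genes or 15 ribosomal protein genes passed in limma, with 3, 2, 3 and 2 of them at an unadjusted p under 0.05 and medians of -0.17 (-0.21 to -0.13), 0.23 (0.01 to 0.38), 0.01 (-0.24 to 0.18) and -0.0049 (-0.08 to 0.02). Without T22, 1 interferon-stimulated gene, *Ifitm3*, was called lower.

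WT cultures gave 146 higher and 26 lower genes (1.3% and 0.232% of those tested). Of the 109 genes higher in KI, 76 were also called in WT, which is 69.7% of the KI list and 52.1% of the WT list. A positive WT difference was found for 106 of the 109, while the median WT difference over all genes tested was 0.08. KI and WT calls share the filter and 1 estimate of the spread per gene, so they are not separate tests. The count of genes called in both was 41 without T13, 49 without T33, 33 without T43 and 30 without the block. Of the 23 lower genes 13 were called in both, 56.5% and 50% of the lists. The difference between the KI and the WT response was itself tested, and limma called 0 of 11204 genes, with 551 (4.92%) at an unadjusted p under 0.05, of which 183 had the more positive response in KI and 368 in WT. *Socs1* differed by 2.78 in KI and 5.73 in WT, with untreated levels of 0 to 4.66 TPM in WT (interaction -2.95 ± 0.57, adjusted p = 0.65). *Gatm* gave 4.22 and 3.87 and *Retnla* 8.52 and 9.90, both with an interaction adjusted p of 0.97. *Cd74* was at 742 to 2370 TPM in IL-4-treated WT cultures, with differences of 3.56 in KI and 4.01 in WT. For *Alox5ap* the KI difference of -0.99 stood beside -0.10 in WT (adjusted p = 0.97 for the interaction). The smallest interaction p of all belonged to short RNA genes, *Gm25000* and *Mir339*, with adjusted p of 0.22 and 0.24, and the others named by this measure were *Gm22107*, *Mir1938*, *Gm22098*, *Gm24853*, *mt-Tc*, *Mthfsd* and *Zyx*, at 0.30 to 0.86. No gene is therefore called different between the genotypes in its response to IL-4, which does not show that the responses were equal.

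**Figure D5:**
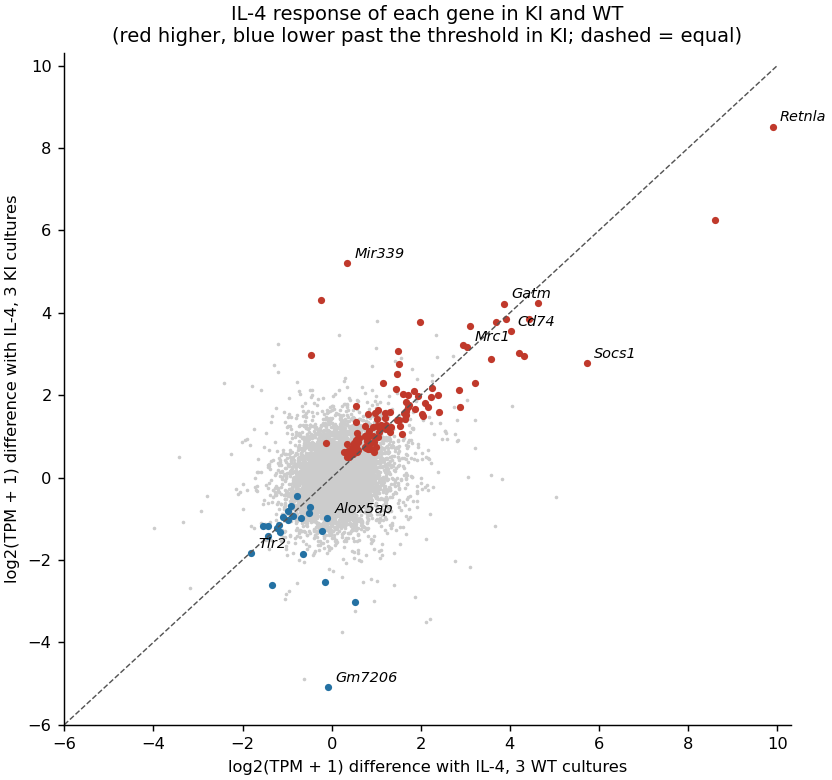
Each point is a gene, with the log2(TPM + 1) difference with IL-4 in the 3 WT cultures on the x axis and in the 3 KI cultures on the y axis, and the dashed line marks equal differences. Red and blue points are the 109 and 23 genes past the threshold in KI, Socs1 lies below the line, and 0 genes passed the test of the difference.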

How the data were processed

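RNA-seq of cultured microglia was analysed from 1 table of 12 libraries. Per the labels and the methods, reads were trimmed by the authors (Trim Galore), and transcript abundance was estimated with Salmon against the mouse build GRCm38 of ENSEMBL, with its GC and position corrections, and summed per gene through tximport. Tool versions are not given in the sources used here. The values the authors deposited are TPM, corrected for transcript length and library size. Each library sums to 1000000, no 2 libraries were identical, and 21155 to 22562 genes were above 0 in the KI libraries, whose 10 highest genes took 20.5% to 28.1% of the TPM. TPM keeps no counts, so depth and counting error are unknown and precision is the spread between cultures. Of 2689 genes with a median above 50 TPM in KI libraries, 5 were at 0 in at least 1 of them, so a 0 is only described as listed. The authors tested counts with DESeq2, which were not analysed here.

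Of 48623 genes, 48419 were named and placed by the GENCODE annotation of GRCm38. The 11204 genes with a mean log2(TPM + 1) above 1.5 over all libraries were tested with limma 3.58.1 under R 4.3.3, with a trend of variance on expression, with culture as a fixed block and the IL-4 difference of each genotype as coefficients. The KI difference comes from the 3 KI pairs. The WT libraries add to the estimate of the spread and, through the filter, to the choice of genes tested. A filter over the KI libraries kept 11554 genes. Fold changes on the log2(TPM + 1) scale understate those of low genes, and folds are ratios of mean TPM. P-values were adjusted by the Benjamini-Hochberg method across the tested genes, at a threshold of 0.05. These p-values combine each gene's spread between the cultures at hand with the variance trend across genes. The gene's own spread had 4 residual degrees of freedom, and the trend entered with a median of 7.93. Lists are given by counts and medians and were not tested. Summaries and plots used Python 3.11.15, numpy 2.4.6 and pandas 2.3.3. The fit was tested on simulated data.

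Pairing comes from the culture number that the names of both libraries share. Deviations from the group means correlated within cultures at 0.38 for T15, 0.12 for T22 and 0.079 for T32, and at 0.34, 0.10 and 0.10 for T13, T33 and T43. Untreated T22 correlated more with IL-4-treated T32 (0.19) than with its own pair, so the block rests on the shared names. Named were *Trem2*, up to 12 genes with the smallest p and up to 8 with the largest difference per direction, taken from genes past the threshold that had 1 sign in all KI cultures, up to 5 with the smallest interaction p in each direction, and members of 20 gene lists. Predicted Gm and Rik genes and pseudogenes with no assigned function were counted and not always described, and some members of the lists were counted and are not reported here by name. Members and lists were chosen with earlier results of these data known. Alternatives were a pseudocount of 0.1, no filter, a filter at 3, a filter over the KI libraries, median-ratio scaling, quantile normalization, no block, a fit lacking the variance trend, an astrocyte marker score as a covariate, the KI libraries alone, and leaving out each culture in turn.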

Additional observations from a re-analysis of the deposited data

How the results depend on the processing

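Under these alternatives the numbers of genes past the threshold in KI stayed within 1.5 times of 109 and 23: the filter at 3 (116 higher, 21 lower), the filter over the KI libraries, quantile normalization, median-ratio scaling, a pseudocount of 0.1 (89 and 17) and the astrocyte score as a covariate (131 and 26, of which 108 and 21 were among the 109 and 23). Without the replicate block there were 40 and 5 genes, and with the KI libraries alone 59 and 10. Without a variance trend limma called 4 higher (among them *Gatm*, *Atp6v0d2* and *Mir339*) and 0 lower genes, and with no filter 1 (*Gatm*) and 0, with 419 and 795 lower genes at an unadjusted p under 0.05. The genes higher in both genotypes numbered 1 with no filter and 3 without the trend. Leaving out 1 culture gave 76 to 119 higher and 7 to 20 lower genes. The test of KI against WT responses called 0 genes under every setting in which it was run except with no filter, where it called 1 (Gm6625), a gene below the main filter; the KI libraries alone give no such test. The difference of *Trem2* with IL-4 was -0.11 after quantile normalization and -0.15 to 0.24 without 1 culture, negative without T15, and it passed the threshold in none of these. Of 54 genes examined, no other changed sign, and 52 lost the call with no filter, 50 without the variance trend, 4 to 15 without 1 culture, 30 without the block, 16 in the KI libraries alone, 3 with the astrocyte score, 5 with median-ratio scaling, 6 with quantile normalization and 7 with a pseudocount of 0.1. The causes of these shifts were not tested. TPM hold no depth, so which low genes are limited by counting cannot be told.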

Other observations

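Further genes past the threshold in KI microglia belong to groups outside the lists, and were chosen for description after their values were seen. Complement was represented beyond C1q by *C3*, the central complement protein, which went from 55.8, 24.1 and 39.6 to 161, 86.5 and 111 TPM (adjusted p = 0.0018), and by *Cfp*, properdin, which stabilizes the enzyme that cleaves *C3* (difference 1.57, adjusted p = 0.0096, and 0.051 without T15). Of iron and metal genes, the transferrin gene *Trf* rose from 454, 701 and 967 to 1190, 1216 and 2095 TPM (adjusted p = 0.0034) and the copper transporter gene *Slc31a2* from 43.5, 79.8 and 58.4 to 130, 153 and 202 TPM (adjusted p = 0.0018). *Ms4a4a* and *Ms4a7*, membrane proteins of a family with similar sequences, rose by 1.95 and 1.09 (adjusted p = 0.0013 and 0.0018). The groups of *Ms4a4a* overlapped, at 7.29 to 46.9 TPM untreated and 27.7 to 163 TPM with IL-4, although each culture rose.

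*Tlr8*, an endosomal receptor for RNA, rose from 12.6, 14.8 and 21.1 to 52.9, 46.9 and 82.5 TPM (adjusted p = 0.0020) in the same libraries in which *Tlr2* fell. Both chains of the receptor for the growth factor GM-CSF were higher, *Csf2ra* by 1.02 and *Csf2rb* by 1.20 (adjusted p = 0.028 and 0.039), and their calls depended on single cultures. *Csf2ra* was not called without T15 (adjusted p = 0.11), T32 (0.08) or T43 (0.077), and *Csf2rb* was called only without T22 among the fits that left out 1 culture, with 0.072 to 0.23 in the others. Lower genes included *Lyn*, a Src family kinase, which went from 128, 133 and 155 to 78.2, 77.8 and 94.1 TPM (adjusted p = 0.036), and *Cybb*, the catalytic subunit of the phagocyte oxidase, which went from 273, 363 and 322 to 176, 169 and 258 TPM (adjusted p = 0.047). *Lyn* lost the call without any 1 of the 6 cultures (0.061 to 0.13), and *Cybb* without any except T32 (0.088 to 0.18). All these genes had the same sign in the 3 KI cultures, and none passed the test of a difference from WT.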
